A study of Mus musculus with 14 samples.

Results

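The genes of the natriuretic peptide system were followed in bulk RNA-seq of mouse plexiform neurofibromas (PNs), the benign nerve tumors of neurofibromatosis type 1. The set was chosen by gene symbol in the deposited count table and holds 8 of its 24062 genes: *Corin*, *Furin*, *Nppa*, *Nppb*, *Nppc*, *Npr1*, *Npr2*, and *Npr3*. *Corin* had been picked up because its transcript was higher in PNs in an earlier analysis of these same libraries. Its levels are therefore described and not tested, whereas the other 7 genes were tested.

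The data comprise 14 mouse libraries of total RNA from whole tissue. Controls were dorsal root ganglia (DRGs) labelled *Nf1*fl/fl (n = 3: DRG3, DRG4, and DRG5), which carry the floxed *Nf1* alleles without Cre, and which the study describes as DRGs with their nerves. PNs were labelled *DhhCre*;*Nf1*fl/fl (n = 11), in which Cre driven by the *Dhh* promoter removes *Nf1* in the Schwann cell (SC) lineage, so that the other cells of the tumor keep the gene. Of the PNs, 5 were slow growing (1079, 1198A, 1202, 1203, and 1206), with a volume change under 5 mm3 over 2 months by MRI, and 6 were fast growing (1053, 1071, 1179, 1191, 1214, and 1216), with an increase over 35 mm3. All groups shared a background labelled as mixed C57BL/6, I-129, and FVBN, all were without drug treatment, and the age is given as 9 months in the Methods but as 7 months in a figure legend of the study, with both sexes used and no sex given per library. A library is named here by the code in its label.

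Natriuretic peptides are small hormones that raise the second messenger cGMP in their target cells. They are made as precursors. Corin, a serine protease anchored in the cell membrane, cuts the precursor of atrial natriuretic peptide (*Nppa*), and furin, a protease of the secretory pathway, cuts the precursors of brain and C-type natriuretic peptide (*Nppb* and *Nppc*). The receptors encoded by *Npr1*, which binds the atrial and brain peptides, and *Npr2*, which binds the C-type peptide, are themselves guanylyl cyclases, and the receptor encoded by *Npr3* clears the peptides. The system is best known from the heart, vessels, kidney, and fat, where *Npr1* promotes lipolysis. In sensory ganglia, *Nppb* marks a small class of neurons that signal itch, and *Npr2* guides the branching of sensory axons.

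The libraries held 9596773 to 17594164 counted reads. A level is given below in CPM, a count divided by the depth of its library after TMM scaling, and 3 counts, used as a floor, corresponded to 0.166 to 0.317 CPM. Floors and counting intervals cover counting error only. SC markers summed to 4566 to 21750 CPM and were thus present in every library. Summed neuronal markers ranged from 1823 to 15440 CPM in 13 libraries, but reached only 51.4 CPM in fast-growing PN 1191, in which 1 of 12 markers was at or under the floor, so this library held little neuronal RNA. Summed fat markers were 4137 to 5929 CPM in controls, 22.5 to 3314 CPM in slow-growing PNs, and 20.7 to 295.9 CPM in fast-growing PNs. Summed skeletal muscle markers were 3955 to 16150 CPM, 29.8 to 3694 CPM, and 83.5 to 2426 CPM in these groups. In bulk tissue, fewer cells of a type and less RNA per cell cannot be told apart. The labels give no batch, and name each library by its own code.

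*Corin* and *Furin* encode the processing enzymes. *Corin* (chromosome 5 of mm10, chr5:72300025-72504473, minus strand, 24 exon blocks) was at 3.97, 1.11, and 1.16 CPM in controls DRG3, DRG4, and DRG5. It was at 6.99, 36.1, 6.40, 4.02, and 10.3 CPM in slow-growing PNs 1079, 1198A, 1202, 1203, and 1206. In the 6 fast-growing PNs it ranged from 42.8 to 70.9 CPM with a median of 48.5 CPM. The 3 groups did not overlap, and 4 of the 5 slow-growing PNs lay nearer to the controls than to the fast-growing PNs, while 1198A lay just under the lowest fast-growing PN. Of all tested genes, 23.4% did not overlap between slow-growing PNs and controls, 32.4% between fast-growing PNs and controls, and 3.01% between both kinds of PN. The means were 2.08 ± 1.64 CPM in controls (SD, n = 3), 12.8 ± 13.2 CPM in slow-growing PNs (SD, n = 5), and 51.9 ± 10.9 CPM in fast-growing PNs (SD, n = 6). Without 1198A the slow-growing mean was 6.93 ± 2.6 CPM (SD, n = 4).

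The log2 fold change of *Corin* was 2.57 (standard error [SE] 0.86) in slow-growing PNs versus controls, 4.58 (SE 0.45) in fast-growing PNs versus controls, and 2.02 (SE 0.51) in fast-growing versus slow-growing PNs, and without 1198A the last was 2.90. The first was 1.69 without 1198A and 3.43 without DRG3, the control with the most *Corin*, and the second was 5.43 without DRG3. With fat and skeletal muscle scores as covariates they were 1.52 and 3.24. Those fits called 0 of all 15714 and 0 of all 16037 genes, so these values are a description only. In the first and second of these comparisons, which share the 3 controls, the fold change of *Corin* without covariates was the 144th highest of 15714 genes and the 52nd highest of 16037. These fold changes were part of what led to the choice of *Corin* and carry no test.

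The markers of fibroblasts moved with *Corin*. Their 8 genes, all above the floor in every library, summed to 2538 to 5211 CPM in controls, 9717 to 18970 CPM in fast-growing PNs, and 11420 CPM in 1198A, against 2075 to 5653 CPM in the other 4 slow-growing PNs. Within the 5 slow-growing PNs the order of *Corin* followed that of the fibroblast sum (Spearman rho 1.0), and within the 6 fast-growing PNs it did not (rho -0.03). Macrophage markers (5 genes) summed to 112.6 to 772.1 CPM in controls, 325.2 CPM in 1198A, 31.12 to 207.2 CPM in the other 4 slow-growing PNs, and 210.8 to 637.8 CPM in fast-growing PNs. Their order over the 11 PNs had a rho of 0.73 with that of *Corin*, against 0.82 for the fibroblast sum. Within the 5 slow-growing PNs the macrophage rho was 0.70, and within the 6 fast-growing PNs -0.20. The neuronal sum ran against *Corin* within the slow-growing PNs (rho -1.0), with a rho of 0.03 within the fast-growing PNs. The part of any of these kinds of cell in the level of *Corin* was not tested. The 5 genes whose level across the 11 PNs was most like that of *Corin*, by Pearson r of log2(CPM + 1) among 12185 genes with a mean of at least 5 CPM, were *Timp1*, *C4b*, *Col16a1*, *Pank4*, and *Tmem198b* (r between 0.969 and 0.973). *Timp1* encodes an inhibitor of matrix metalloproteinases, *C4b* a complement component, and *Col16a1* a collagen. All 5 were higher in 1198A than in any other slow-growing PN, for example *C4b* with 282 CPM against at most 121 CPM. The likeness follows the split between 1198A with the fast-growing PNs and the other slow-growing PNs, and within the 6 fast-growing PNs the same 5 genes had an r between -0.096 and 0.415 with *Corin*.

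**Figure D1:**
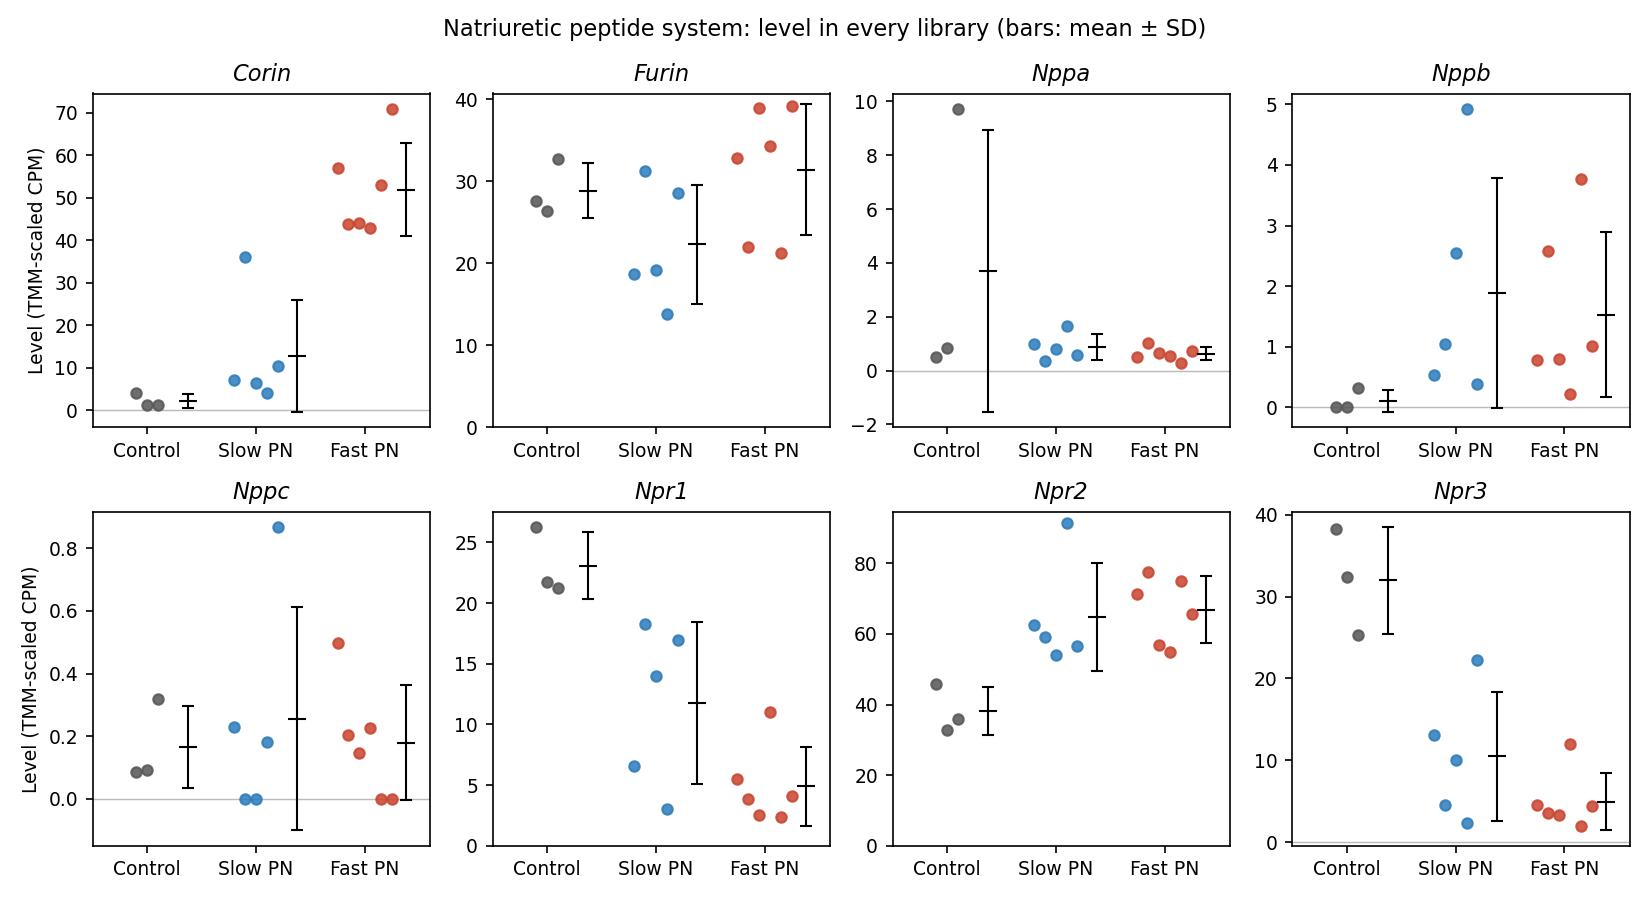
Level of each of the 8 genes (vertical axis, TMM-scaled CPM, a separate linear scale per panel) in each library, with points for libraries by group (control n = 3, slow-growing PN n = 5, fast-growing PN n = 6) and bars for the mean ± SD. *Corin* separates the groups with 1198A as the high slow-growing PN, *Npr1* and *Npr3* are lower and *Npr2* higher in every PN than in every control, and *Nppa* stands out in DRG5, at 9.73 CPM.

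*Furin* (chr7:80388585-80405436, minus strand) was at 27.6, 26.3, and 32.7 CPM in controls DRG3, DRG4, and DRG5. It was at 18.7, 31.3, 19.2, 13.9, and 28.5 CPM in slow-growing PNs, in the order given above, and at 21.2 to 39.2 CPM with a median of 33.6 CPM in fast-growing PNs. The ranges of the 3 groups overlapped. The log2 fold changes were -0.41 (SE 0.28) in slow-growing PNs versus controls, 0.07 (SE 0.24) in fast-growing PNs versus controls, and 0.49 (SE 0.25) in fast-growing versus slow-growing PNs, and none passed the threshold (adjusted p = 0.333, 0.849, and 0.286, quasi-likelihood test of edgeR, adjusted over all tested genes by the method of Benjamini and Hochberg [BH]). A gene is called changed here at an adjusted p under 0.05 in this test. The fibroblast and macrophage sums also moved with *Furin*, with a rho of 0.90 and 0.87 over the 11 PNs, 0.90 and 0.60 within the 5 slow-growing PNs, and 0.77 and 0.83 within the 6 fast-growing PNs, while the neuronal sum ran against it (rho -0.87 over the 11 PNs). For *Furin* the order with the fibroblast sum thus held within both groups of PNs, and for *Corin* within the slow-growing group. The part of these cells in the level of *Furin* was not tested.

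The peptide genes *Nppb* and *Nppa* are neighbors on chromosome 4. *Nppb* (chr4:147985788-147987205) and *Nppa* (chr4:148000722-148002079) lie on the plus strand, 13516 bases apart, and their fold changes versus controls had opposite signs, which for *Nppa* in slow-growing PNs turned without DRG5. The sequences before their start sites are shown because the pair is known for shared control in the heart, and that of *Corin* because its transcript led to the set. The RefSeq start of *Nppb* lies 112 bases inside the gene as given above, so that the end of its window, all 3 matches included, falls within that gene, and the RefSeq start of *Corin* lies 67 bases before the gene. The 250 bases before each RefSeq start site (GRCm38.p6, the same assembly as mm10) are printed 5′ to 3′ on the strand of the gene, from chr4:147985650-147985899 for *Nppb*, chr4:148000472-148000721 for *Nppa*, and chr5:72504541-72504790 on the minus strand for *Corin*. Capitals mark matches, on either strand, to GATAA, a core bound by GATA factors (reverse complement TTATC), or to TATAAA, the TATA box (reverse complement TTTATA). These motifs do not overlap each other here.
Nppb: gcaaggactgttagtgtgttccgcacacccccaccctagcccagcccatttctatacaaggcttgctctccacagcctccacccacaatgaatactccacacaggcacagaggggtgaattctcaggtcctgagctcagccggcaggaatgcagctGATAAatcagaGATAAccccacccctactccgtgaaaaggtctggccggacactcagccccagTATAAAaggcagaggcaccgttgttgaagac
Nppa: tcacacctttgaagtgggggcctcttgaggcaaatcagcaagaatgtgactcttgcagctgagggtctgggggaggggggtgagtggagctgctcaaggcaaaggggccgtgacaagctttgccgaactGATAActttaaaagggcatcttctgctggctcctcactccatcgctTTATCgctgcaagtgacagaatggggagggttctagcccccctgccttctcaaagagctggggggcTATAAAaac
Corin: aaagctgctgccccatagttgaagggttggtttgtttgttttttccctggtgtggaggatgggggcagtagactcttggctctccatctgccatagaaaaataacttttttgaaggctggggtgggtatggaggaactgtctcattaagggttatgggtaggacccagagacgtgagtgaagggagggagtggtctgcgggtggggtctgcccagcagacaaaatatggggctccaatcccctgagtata

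In these windows, *Nppb* held GATAA at 94 and at 83 bases before the start and TATAAA at 31 bases before it, counted to the first base of each match. *Nppa* held GATAA at 121 and, on the reverse strand, at 75 bases before the start, and TATAAA at 9 bases before it. *Corin* held neither. Among 32851 mouse windows of this length, 22.6% held GATAA and 12.4% held TATAAA. A match describes letters only.

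*Nppb* was close to absent from controls. It had 0, 0, and 3 counts in controls DRG3, DRG4, and DRG5, all at or under the floor. It was at 0.53, 1.05, 2.54, 4.93, and 0.39 CPM in slow-growing PNs 1079, 1198A, 1202, 1203, and 1206, and at 0.23 to 3.77 CPM with a median of 0.91 CPM in fast-growing PNs. Every slow-growing PN and 5 of 6 fast-growing PNs lay above every control, and 1191 was the exception, with 3 counts. Summed over libraries, the ratio to controls was 19.1 for slow-growing PNs (104 counts against 3, 95% counting interval 6.38 to 94.4) and 15.9 for fast-growing PNs (132 counts against 3, interval 5.33 to 78.2). The fitted log2 fold change was 4.07 (SE 1.33) in slow-growing PNs (adjusted p = 0.085, edgeR with BH adjustment) and 3.78 (SE 1.25) in fast-growing PNs (adjusted p = 0.045, edgeR with BH adjustment). *Nppb* passed the filter on low counts through the PNs alone and so had to differ, and these p-values are no support for the difference. Without DRG5, which leaves controls with 0 counts, both fitted values were 7.41, a value that depends on the prior count of the fit. Leaving out each library in turn, the fast-growing call held in 2 of 9 fits, those without DRG5 and without 1191 (adjusted p 0.0237 to 0.143, edgeR with BH adjustment). Between fast-growing and slow-growing PNs the log2 fold change was -0.30 (SE 0.75, adjusted p = 0.842, edgeR with BH adjustment).

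*Nppb* moved with the markers of itch-type sensory neurons. The 4 markers *Il31ra*, *Nts*, *Sst*, and *Osmr* summed to 65.8 to 76.2 CPM in controls, 91.3 to 220.2 CPM in slow-growing PNs, and 154 to 234.7 CPM in fast-growing PNs. Much of that sum was *Osmr*, which is not limited to neurons. *Il31ra*, the interleukin 31 receptor of these neurons, was at 50.8, 36.2, and 38.7 CPM in 1203, 1071, and 1214, the 3 PNs with the most *Nppb*, and at 0.61 to 17.1 CPM in every other library. The other markers did not single out the same 3 PNs. *Nts*, a neuropeptide gene, was at 36.1, 21.2, and 11.8 CPM in 1203, 1071, and 1214, but at 15.6 CPM in 1179, which had 0.80 CPM of *Nppb*. *Sst*, the somatostatin gene, was at 6.02, 5.17, and 2.66 CPM in the same 3 PNs and at 2.74 CPM in 1202. *Osmr* was highest in 1191, at 194.9 CPM, the PN with the lowest *Nppb*, where *Sst* and *Nts* were at 0. Over the 11 PNs the order of *Nppb* had a rho of 0.63 with the itch-type sum, 0.62 with the neuronal sum, and -0.90 with the endothelial sum. Within the 5 slow-growing PNs these were 0.80, 0.70, and -0.90, and within the 6 fast-growing PNs 0.83, 0.71, and -0.89. The part of any of these cells in the level of *Nppb* was not tested.

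*Nppa* stood out in a single library. It was at 0.52, 0.83, and 9.73 CPM in controls DRG3, DRG4, and DRG5. It was at 0.99, 0.38, 0.81, 1.64, and 0.58 CPM in slow-growing PNs and at 0.30 to 1.02 CPM with a median of 0.59 CPM in fast-growing PNs. The PNs overlapped DRG3 and DRG4 and lay below DRG5. The log2 fold change was -2.09 (SE 0.91) in slow-growing PNs versus controls (adjusted p = 0.161, edgeR with BH adjustment) and -2.62 (SE 0.81) in fast-growing PNs versus controls, which passed the threshold (adjusted p = 0.0342, edgeR with BH adjustment). Without DRG5 these values were 0.32 and -0.11 (adjusted p = 0.818 and 0.921, edgeR with BH adjustment), so the call rested on that control. The fast-growing call was also lost without 1053, 1179, 1191, 1214, or 1216 and held in 2 of 8 fits that left out a library, those without DRG3 and without DRG4 (adjusted p 0.0105 to 0.921 over the 8, edgeR with BH adjustment). Without 1071 the gene did not pass the filter on low counts. Cardiac muscle markers were high in DRG5 too. They summed to 187 CPM there and to 8.85 to 21.4 CPM in the other 13 libraries, and *Myl7* and *Myl4*, the atrial myosin light chains, were at 17.5 and 28.9 CPM in DRG5 and at no more than 0.28 and 3.05 CPM elsewhere. Of the other listed markers, *Actc1*, *Tnnt2*, *Myh6*, *Tnni3*, and *Mybpc3* were also highest in DRG5, at 64.9, 31.6, 30.45, 8.14, and 1.48 CPM. *Gata4* and *Tbx5* did not single out DRG5. *Gata4* was at 1.375 CPM there and 1.387 CPM in DRG4, and *Tbx5* at 3.07 CPM there and 3.86 CPM in 1206. *Nkx2-5*, a cardiac transcription factor, was at 0 in DRG5, as in every other library but 1216, which had 1 count. Skeletal muscle markers were also highest in DRG5, at 16150 CPM against 3955 and 9077 CPM in DRG3 and DRG4, and over the 14 libraries the order of *Nppa* had a rho of 0.60 with their sum and 0.24 with the cardiac sum. The part of either tissue in this value was not tested. An antisense gene without a row in the count table covers 61.5% of the exonic bases of *Nppa*, and whether reads were counted by strand is not given in the sources used here.

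*Nppc* (chr1:86666291-86670571) was near the limit of detection. It had 0 to 9 counts per library and was above the floor in 2 of 14 libraries, slow-growing PN 1206 (0.87 CPM) and fast-growing PN 1053 (0.50 CPM). It did not pass the filter in any comparison. Summed over libraries, the ratio to controls was 1.55 for slow-growing PNs (interval 0.53 to 5.49) and 1.23 for fast-growing PNs (interval 0.44 to 4.26), so a difference was not detectable at this depth.

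The 3 receptor genes moved in both directions, with *Npr2* higher and *Npr1* and *Npr3* lower in fast-growing PNs. *Npr1* (chr3:90450591-90465866) was at 26.3, 21.7, and 21.3 CPM in controls DRG3, DRG4, and DRG5. It was at 6.54, 18.3, 14.01, 3.01, and 17.0 CPM in slow-growing PNs 1079, 1198A, 1202, 1203, and 1206, and at 2.37 to 11.1 CPM with a median of 3.95 CPM in fast-growing PNs. Every PN lay below every control. The log2 fold change was -2.28 (SE 0.44) in fast-growing PNs versus controls, which passed the threshold (adjusted p = 0.00389, edgeR with BH adjustment), and -1.01 (SE 0.51) in slow-growing PNs versus controls, which did not (adjusted p = 0.210, edgeR with BH adjustment). Between fast-growing and slow-growing PNs the difference of -1.27 (SE 0.51) did not pass either (adjusted p = 0.188, edgeR with BH adjustment).

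*Npr3* (chr15:11839896-11907287) followed a similar course. It was at 38.3, 32.4, and 25.3 CPM in controls DRG3, DRG4, and DRG5. It was at 13.1, 4.58, 10.1, 2.37, and 22.3 CPM in slow-growing PNs, in the same order, and at 1.997 to 11.9 CPM with a median of 3.95 CPM in fast-growing PNs. Every PN again lay below every control. The log2 fold change was -2.73 (SE 0.46) in fast-growing PNs versus controls (adjusted p = 0.00199, edgeR with BH adjustment), -1.64 (SE 0.60) in slow-growing PNs versus controls (adjusted p = 0.111, edgeR with BH adjustment), and -1.08 (SE 0.57) in fast-growing versus slow-growing PNs (adjusted p = 0.310, edgeR with BH adjustment).

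The fat markers moved with both genes. All 13 were called lower in fast-growing PNs than in controls (edgeR with BH adjustment), where 16.7% of all tested genes were called lower, with a median log2 fold change of -5.46. So were 12 of 14 skeletal muscle markers, with a median of -4.32. Within the 5 slow-growing PNs the order of their sum had a rho of -0.60 with *Npr1* and 0.10 with *Npr3*. Within the 6 fast-growing PNs it was 0.31 with both. Among slow-growing PNs the fat sum was 1927, 1955, and 3314 CPM in 1198A, 1202, and 1206, which held the most *Npr1*, and 247 and 22.5 CPM in 1079 and 1203. Among fast-growing PNs it was highest in 1191, at 295.9 CPM, the library with the most *Npr1* and *Npr3* of its group. The next highest fat sum, 211 CPM in 1214, was in the library with the least *Npr1* and *Npr3* of the group. Within the 6 fast-growing PNs the order of either gene had a rho of 0.26 with the fat sum. Within the 5 slow-growing PNs it was 0.70 for both, and over the 11 PNs 0.809 for *Npr1* and 0.745 for *Npr3*. *Npr3* did not follow in 1198A, with 4.58 CPM. Vascular markers moved with both genes too. Of 8 endothelial and 8 pericyte and smooth muscle markers, 5 and 6 were called lower in fast-growing PNs than in controls (edgeR with BH adjustment), against the same 16.7% of all tested genes, and the endothelial sum was 401 to 540.9 CPM in controls, 110 to 510.5 CPM in slow-growing PNs, and 149.4 to 365.9 CPM in fast-growing PNs. Within the 6 fast-growing PNs both genes had a rho of 0.83 with the endothelial and 0.77 with the pericyte sum. Within the 5 slow-growing PNs *Npr3* had a rho of 1.0 with the endothelial and 0.80 with the pericyte sum. For *Npr1* these were 0.30 and 0.0. With the SC sum, *Npr3* had a rho of 1.0 within the slow-growing PNs as well, and of -0.60 within the fast-growing PNs. The pericyte sum was 853.9 to 961.9 CPM in controls, 192.5 to 1086 CPM in slow-growing PNs, and 183.6 to 325.5 CPM in fast-growing PNs. With the fibroblast sum, *Npr1* had a rho of 0.9 within the slow-growing PNs, 0.6 within the fast-growing PNs, and -0.155 over the 11 PNs. With the neuronal sum these were -0.9, -0.6, and -0.264. For *Npr3* they were 0.4, 0.6, and -0.1 with the fibroblast sum, and -0.4, -0.6, and -0.255 with the neuronal sum. The part of any of these kinds of cell in the level of either gene was not tested. With fat and skeletal muscle scores as covariates, the log2 fold change in fast-growing PNs versus controls was -0.19 (SE 1.56) for *Npr1* and -1.21 (SE 1.65) for *Npr3*. That fit called 0 of all 16037 genes, against 5043 in the fit without covariates and 5868 with DESeq2, and at an unadjusted p under 0.05 the counts were 1171, 6700, and 7002.

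**Figure D2:**
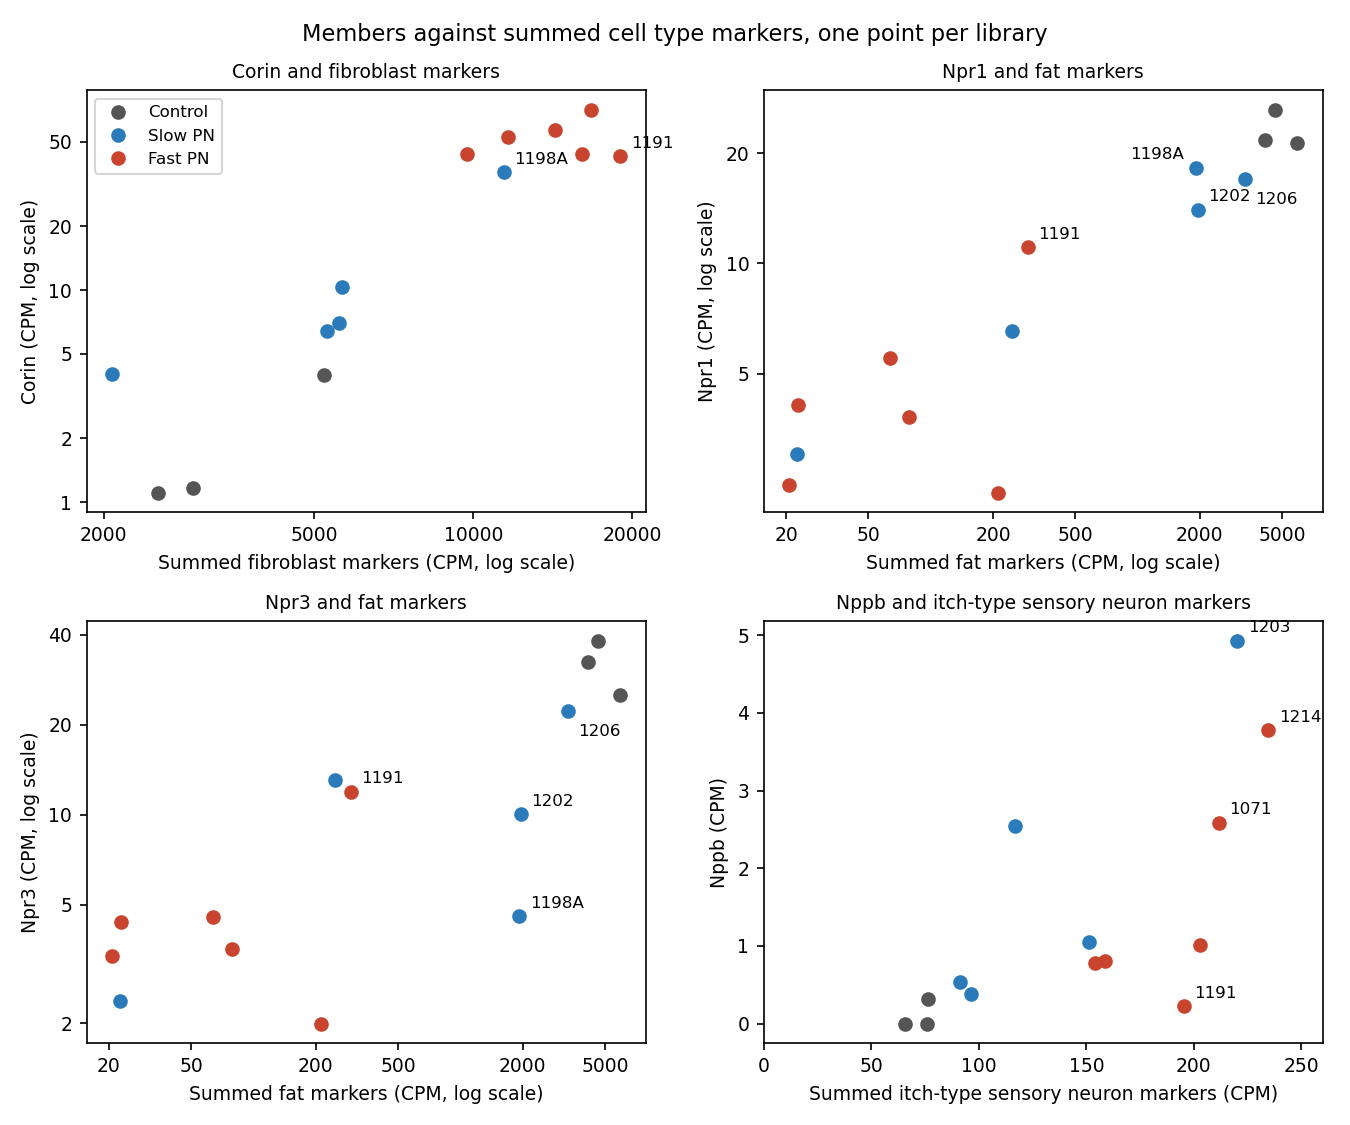
Level of *Corin*, *Npr1*, *Npr3*, and *Nppb* (vertical axes, CPM) against the summed level of cell type markers (horizontal axes, CPM), with 1 point per library colored by group. Axes are logarithmic except for *Nppb*. Slow-growing PN 1198A lies beside the fast-growing PNs for *Corin* and fibroblast markers, 1191 has the highest fat sum of the fast-growing PNs at 295.9 CPM, and 1191 has little *Nppb* for its marker sum.

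*Npr2* (chr4:43631935-43651244), the receptor gene for the C-type peptide, rose in fast-growing PNs and had the smallest SE of the members there. It was at 45.7, 32.7, and 35.9 CPM in controls DRG3, DRG4, and DRG5. It was at 62.6, 59.1, 54.0, 91.5, and 56.7 CPM in slow-growing PNs, in the same order, and at 55.0 to 77.6 CPM with a median of 68.5 CPM in fast-growing PNs. Every PN lay above every control. The log2 fold change was 0.76 (SE 0.15) in fast-growing PNs versus controls, which passed the threshold (adjusted p = 0.00433, edgeR with BH adjustment). It was 0.72 (SE 0.21) in slow-growing PNs versus controls, just outside it (adjusted p = 0.0599, edgeR with BH adjustment), and it passed without DRG3 (0.87, adjusted p = 0.049) and without 1203 (0.60, adjusted p = 0.0368, same edgeR test and BH adjustment). Between fast-growing and slow-growing PNs it was 0.05 (SE 0.16, adjusted p = 0.885, edgeR with BH adjustment). Neuronal markers summed to 15440 CPM in 1203, the highest of all libraries and the one with the most *Npr2*. In 1191, with a neuronal sum of 51.4 CPM, *Npr2* was at 55.0 CPM, the lowest of the fast-growing PNs, and within these 6 its order had a rho of 0.94 with the neuronal sum (0.30 within the 5 slow-growing PNs). The rho of *Npr2* within the same 6 PNs was -0.94 with the fibroblast sum and -0.89 with the macrophage sum. These were -0.30 and -0.20 within the 5 slow-growing PNs. The part of neurons or of these other cells in the level of *Npr2* was not tested.

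Counted over the 7 genes other than *Corin*, 6 (all but *Nppc*) were tested in slow-growing PNs versus controls and 0 were called by edgeR, where 11.3% of all tested genes were called (4.12% higher and 7.13% lower). At an unadjusted p under 0.05 the count was 4, where 30.3% of all tested genes passed, and DESeq2, which called 22.5% of all tested genes, called 3, *Nppb*, *Npr2*, and *Npr3*. In 4 of the 6 the groups did not overlap, against 23.4% of all tested genes. In fast-growing PNs versus controls 5 of 6 were called (4 of 5 without *Nppb*), *Npr2* and *Nppb* higher and *Npr1*, *Npr3*, and *Nppa* lower, where 31.4% of all tested genes were called, 14.8% higher and 16.7% lower. The same 5 had an unadjusted p under 0.05, where 41.8% of all tested genes did. In 3 of the 6, the receptor genes, the groups did not overlap, against 32.4% of all tested genes. The calls of the 3 receptor genes held in all 9 fits that left out a library, and the count was 3 or 4 in these fits because those of *Nppa* and *Nppb* did not always hold. In fast-growing versus slow-growing PNs 0 of 5 (*Nppa* and *Nppc* not tested) were called by edgeR, where 1.27% of all tested genes were called (0.802% higher and 0.466% lower). At an unadjusted p under 0.05 the count was 1, *Npr1*, where 20.4% of all tested genes passed. DESeq2, limma, and the other fits of this comparison also called 0. These counts describe only the members that passed the filter, and without *Nppb* those in slow-growing PNs were 0 called, 3 at an unadjusted p under 0.05, and 3 not overlapping, each of 5. The slow-growing and fast-growing comparisons with controls share their 3 controls.

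**Figure D3:**
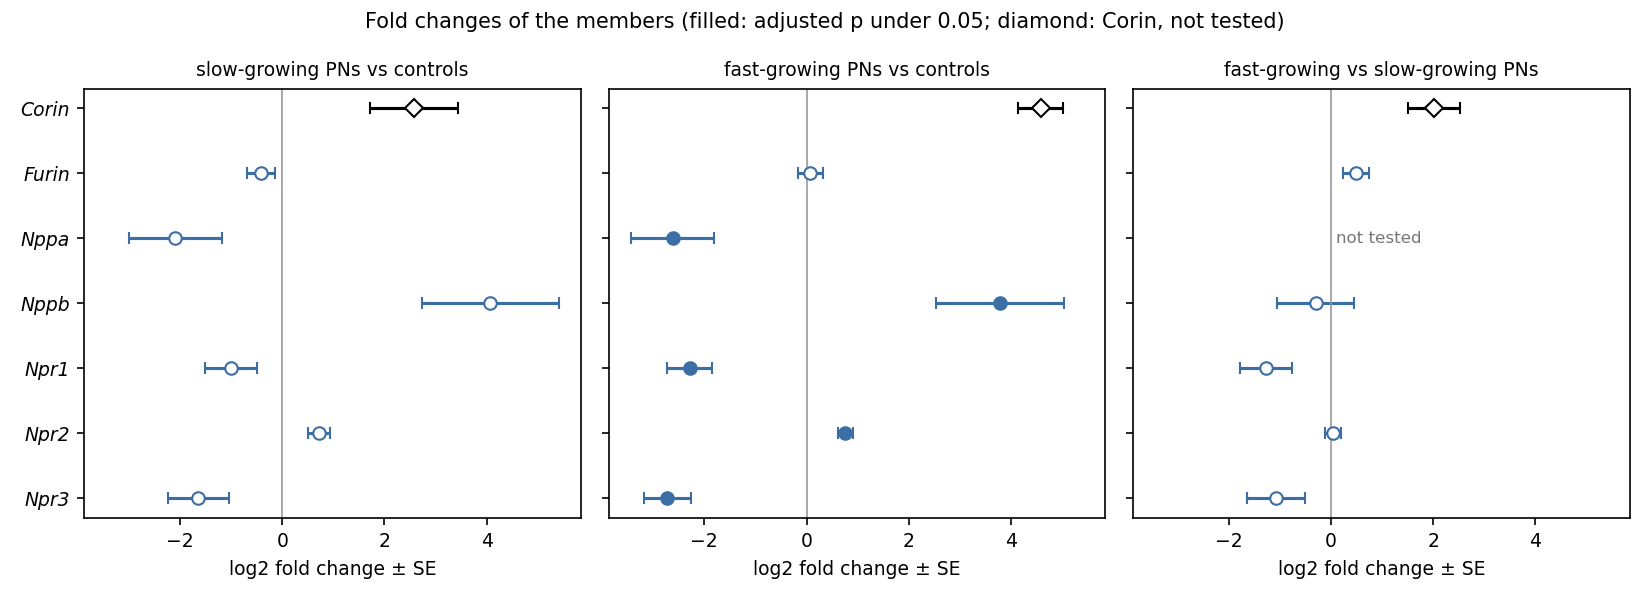
Log2 fold change (horizontal axis, error bars ± SE) of 7 of the 8 genes in the 3 comparisons, with filled points for an adjusted p under 0.05 and a diamond for *Corin*, which was not tested. *Nppc* passed the filter in no comparison and is left out. Filled points appear in fast-growing PNs versus controls, for 5 genes.

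Levels of different genes were compared as CPM per kilobase of the longest annotated transcript. In controls the order was *Npr2* (10.4 ± 1.85 CPM per kilobase, SD, n = 3), *Npr1* (5.68 ± 0.68), *Furin* (5.03 ± 0.59), *Npr3* (4.64 ± 0.94), *Nppa* (4.27 ± 6.04), *Corin* (0.43 ± 0.34), *Nppc* (0.16 ± 0.13), and *Nppb* (0.14 ± 0.23). The place of *Nppa* rested on DRG5, without which its mean was 0.78 CPM per kilobase (n = 2). Genes are said here to lie within their spread where the ranges of mean ± SD overlap. The 3 genes from *Npr1* to *Npr3* lay within their spread of each other, and so did the last 3. In fast-growing PNs *Npr2* was again first, at 18.3 ± 2.58 CPM per kilobase (SD, n = 6). *Corin* was second at 10.7 ± 2.25, beyond the spread of both neighbors, *Npr2* above and *Furin* below it, at 5.48 ± 1.396. The others followed at 1.96 ± 1.74 for *Nppb*, 1.20 ± 0.79 for *Npr1*, 0.72 ± 0.29 for *Nppa*, 0.72 ± 0.51 for *Npr3*, and 0.17 ± 0.18 for *Nppc*, and neighbors among these 5 lay within their spread. In slow-growing PNs, *Npr2* was at 17.7 ± 4.18 and *Corin* at 2.62 ± 2.72 CPM per kilobase (SD, n = 5).

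To follow the system beyond its ligands and receptors, 24 other genes of peptide clearance and cGMP signaling were listed, of which 19 were tested. In fast-growing PNs versus controls, 3 rose and 10 fell, 13 of 19 where 31.4% of all tested genes were called. Their median log2 fold change was -0.67, against 0.02 over all tested genes. In slow-growing PNs versus controls, 0 rose and 2 fell, where 11.3% of all tested genes were called (median -0.18, against 0.04 over all tested genes), and in fast-growing versus slow-growing PNs 0 rose and 1 fell, where 1.27% were called (median -0.37, against -0.03). The pathway fold changes by gene show the falls spread over peptide clearance, soluble cyclases, kinase substrates, and phosphodiesterases. Cell type markers also fell in fast-growing PNs versus controls, where 16.7% of all tested genes were called lower. These were 13 of 13 fat, 12 of 14 skeletal muscle, 6 of 8 pericyte and smooth muscle, and 5 of 8 endothelial markers. Of 8 fibroblast markers, 8 were called higher, as were 5 of 10 SC markers, where 14.8% of all tested genes were called higher. With fat and skeletal muscle scores as covariates 0 pathway genes and 0 of all 16037 genes were called. The part of these cells was not tested. The 4 other membrane guanylyl cyclases and *Ostn*, a peptide that binds the clearance receptor, did not pass the filter.

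Among peptide-degrading enzymes, *Mme*, which encodes neprilysin, was at 290, 172, and 189 CPM in controls DRG3, DRG4, and DRG5 and at 93.7 to 300 CPM in slow-growing PNs. In fast-growing PNs, where it was at 36.2 to 87.0 CPM, all lay below every control and every slow-growing PN. Groups did not overlap for 32.4% of all tested genes in fast-growing PNs versus controls and for 3.01% in fast-growing versus slow-growing PNs. *Mme* fell by 1.73 (SE 0.26) on the log2 scale in fast-growing PNs versus controls (adjusted p = 0.00105, edgeR with BH adjustment) and by 1.57 (SE 0.31) in fast-growing versus slow-growing PNs (adjusted p = 0.0449, edgeR with BH adjustment). The last call held in 3 of 11 fits that left out a library, those without 1198A, 1203, or 1071. *Ide*, which encodes the insulin-degrading enzyme that also cleaves the atrial peptide, fell by 0.55 (SE 0.10) in fast-growing PNs and by 0.50 (SE 0.13) in slow-growing PNs, each versus controls (adjusted p = 0.00246 and 0.0396, edgeR with BH adjustment). The slow-growing call of *Ide* was lost without any library but 1203. *Pcsk6*, the convertase that activates corin, was at 29.7 ± 12.1 CPM in controls (SD, n = 3), 25.4 ± 11.8 CPM in slow-growing PNs (SD, n = 5), and 13.9 ± 7.59 CPM in fast-growing PNs (SD, n = 6). Its log2 fold change of -1.14 (SE 0.41) in fast-growing PNs versus controls did not pass the threshold (adjusted p = 0.0634, edgeR with BH adjustment), but passed it without 1191 (-1.49, adjusted p = 0.00494, edgeR with BH adjustment), with DESeq2 (adjusted p = 0.0341), and with limma.

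Of the soluble guanylyl cyclase subunits, which answer to nitric oxide, *Gucy1a3* and *Gucy1b3* (older symbols of *Gucy1a1* and *Gucy1b1*) fell by 2.45 (SE 0.26) and by 1.41 (SE 0.23) on the log2 scale in fast-growing PNs versus controls (edgeR with BH adjustment, adjusted p = 0.000167 and 0.00172). *Gucy1a3* was at 43.5 to 47.7 CPM in controls, 5.51 to 14.1 CPM in fast-growing PNs, and 9.77 to 16.1 CPM in 4 slow-growing PNs, but at 54.5 CPM in 1206. Markers of pericytes and smooth muscle moved with it. They summed to 1086 CPM in 1206 and to 183.6 to 325.5 CPM in the other 10 PNs, and their part in this result was not tested.

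Of the cGMP-dependent kinase and its substrates, *Prkg1*, the main kinase gene, had log2 fold changes of 0.77 (SE 0.31) in fast-growing and 0.93 (SE 0.43) in slow-growing PNs versus controls, neither past the threshold (adjusted p = 0.0891 and 0.180, edgeR with BH adjustment). *Rgs2*, a brake on G protein signaling that the kinase activates, fell in both. It was at 88.1, 116, and 171 CPM in controls DRG3, DRG4, and DRG5, 11.2 to 31.5 CPM in slow-growing PNs, and 19.2 to 48.4 CPM in fast-growing PNs, with every PN below every control. Its log2 fold change was -2.52 (SE 0.37) in slow-growing and -1.85 (SE 0.35) in fast-growing PNs versus controls (adjusted p = 0.00455 and 0.00372, edgeR with BH adjustment), and both calls held without each library in turn. *Mrvi1*, the older symbol of *Irag1*, a substrate that restrains calcium release, fell by 1.80 (SE 0.21) in fast-growing PNs (adjusted p = 0.000291, edgeR with BH adjustment). It was at 28.4 to 34.8 CPM in controls and 6.87 to 13.9 CPM in fast-growing PNs. In slow-growing PN 1206, with a pericyte sum of 1086 CPM, it was at 33.3 CPM, against 6.48 to 13.2 CPM in the other slow-growing PNs. The part of pericytes and smooth muscle in the level of *Mrvi1* was not tested. *Kcnma1*, the large-conductance potassium channel gene, rose by 0.93 (SE 0.15) in fast-growing PNs versus controls (adjusted p = 0.00159, edgeR with BH adjustment).

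Of the phosphodiesterases, which break cGMP down, *Pde3a* and *Pde3b* fell in fast-growing PNs versus controls by 2.08 (SE 0.31) and by 1.88 (SE 0.19) on the log2 scale (edgeR with BH adjustment, adjusted p = 0.00108 and 0.000113). *Pde3b* is abundant in fat cells. It was at 77.8, 74.2, and 87.8 CPM in slow-growing PNs 1198A, 1202, and 1206, the 3 with the highest fat sums, at 21.9 and 26.1 CPM in 1079 and 1203, and at 74.2 to 106 CPM in controls. The part of fat in these levels was not tested. *Pde3a* was at 15.1 to 23.3 CPM in controls and 2.93 to 8.13 CPM in fast-growing PNs. In slow-growing PN 1206, with a pericyte sum of 1086 CPM, *Pde3a* was at 15.8 CPM, against 5.02 to 6.91 CPM in the other slow-growing PNs. The part of pericytes and smooth muscle in the level of *Pde3a* was not tested. *Pde1a*, a calcium-dependent enzyme, rose by 1.41 (SE 0.24, adjusted p = 0.00199, edgeR with BH adjustment), with 75.6 ± 17.9 CPM in fast-growing PNs (SD, n = 6) against 27.3 ± 5.26 CPM in controls (SD, n = 3).

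**Figure D4:**
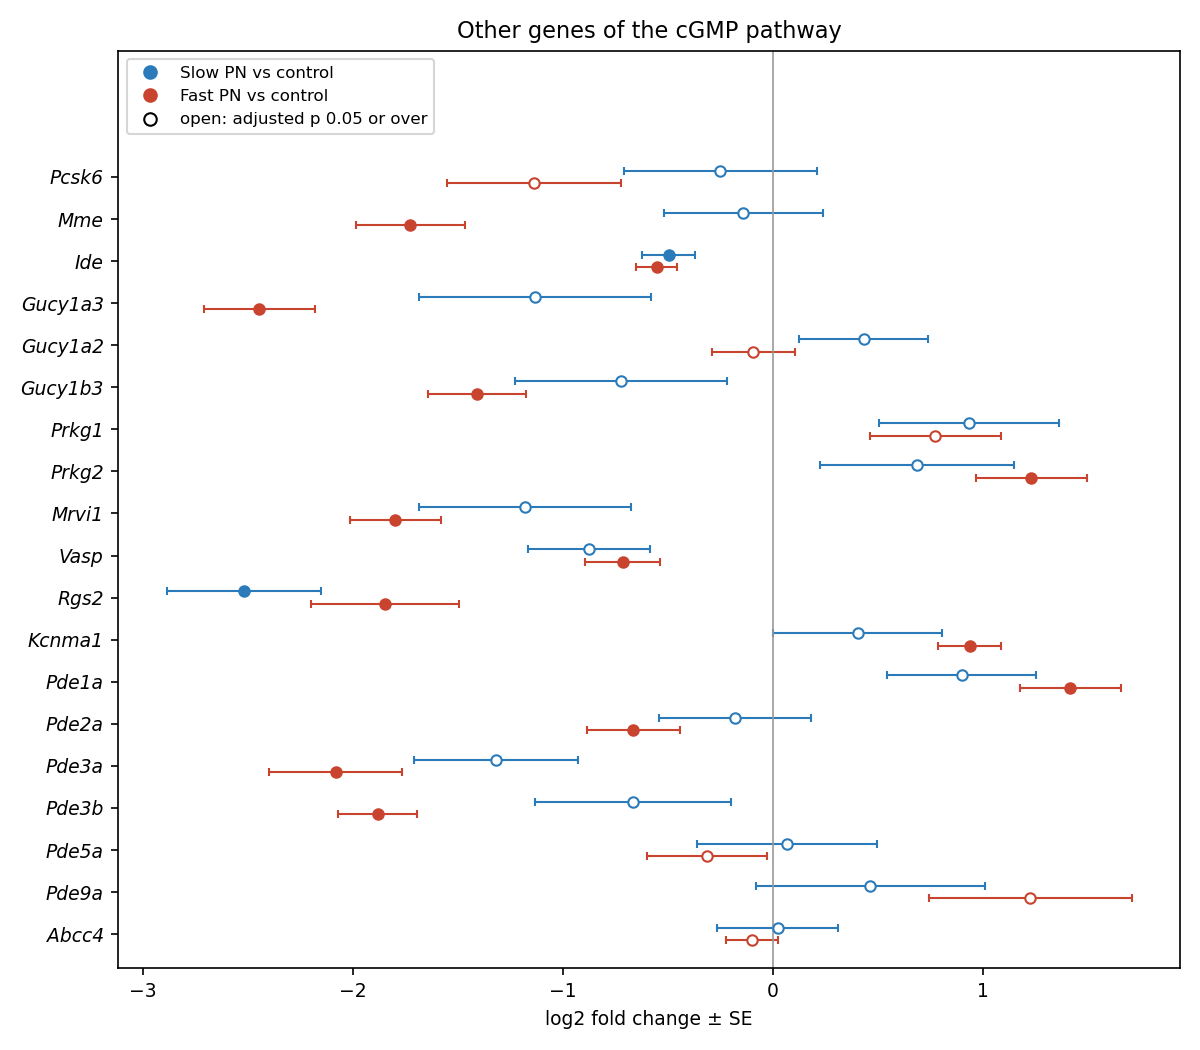
Log2 fold change (horizontal axis, error bars ± SE) of the 19 tested genes of peptide clearance and cGMP signaling in slow-growing and in fast-growing PNs, each versus the same 3 controls, with filled points for an adjusted p under 0.05. Fast-growing PNs show 10 falls and 3 rises, and slow-growing PNs show 2 falls.

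The proteases related to *Corin* and *Furin* were compared next. Of the 15 other genes of the type II transmembrane serine protease family, to which corin belongs, 7 were tested in fast-growing PNs versus controls, and 2 rose and 1 fell, where 31.4% of all tested genes were called. *Tmprss5* was at 6.39, 2.96, and 2.43 CPM in controls DRG3, DRG4, and DRG5, at 8.40 to 15.1 CPM in slow-growing PNs, and at 23.2 to 29.8 CPM in fast-growing PNs. Its 3 groups did not overlap, as for *Corin*, which was chosen on such values. Of all tested genes, 23.4% did not overlap in slow-growing PNs versus controls and 32.4% in fast-growing PNs versus controls. In fast-growing versus slow-growing PNs this share was 3.01%. The log2 fold change of *Tmprss5* was 1.48 (SE 0.37) in slow-growing and 2.69 (SE 0.29) in fast-growing PNs versus controls, and 1.21 (SE 0.15) between fast-growing and slow-growing PNs (adjusted p = 0.0374, 0.000174, and 0.0156, edgeR with BH adjustment). Leaving out each library in turn, the first of these calls held in 2 of 8 fits, the second in 9 of 9, and the third in 5 of 11. *Hpn*, which encodes hepsin, fell by 0.81 (SE 0.27) in fast-growing PNs versus controls (adjusted p = 0.0468, edgeR with BH adjustment), from 2.23 ± 0.10 to 1.31 ± 0.24 CPM, and this call held in 1 of 9 fits that left out a library (adjusted p 0.0498 to 0.151, edgeR with BH adjustment). Of the 8 other proprotein convertases, the family of furin, 1 rose and 0 fell in fast-growing PNs versus controls, where 31.4% of all tested genes were called. This was *Mbtps1*, the site 1 protease gene (log2 fold change 0.45, SE 0.14, adjusted p = 0.0348, edgeR with BH adjustment), whose call held in 4 of 9 fits that left out a library (adjusted p 0.0233 to 0.0867). *Pcsk2*, the gene of a neuroendocrine convertase, did not pass (log2 fold change 0.51, SE 0.61, adjusted p = 0.569, edgeR with BH adjustment). Its log2 fold change was 0.23 to 1.16 without each library in turn, and 0 of these fits called it. In 1191, the library with little neuronal RNA, *Pcsk2* was at 8.10 CPM, against 32.6 to 76.3 CPM in the other fast-growing PNs.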

How the data were processed

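Bulk RNA-seq of 14 mouse libraries was analysed. Per the labels, total RNA was amplified with an Ovation kit (RNA-Seq System v2). The submitters' processing notes name CASAVA 1.4, FastQC 0.11.0, TopHat2 2.0.9, featureCounts 1.5.2, edgeR 3.16.5, and mm10. The authors deposited raw read counts for 24062 genes, and log2 values scaled by TMM, used here in 1 alternative. The strand setting is not given in the sources used here. Groups came from the labels.

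Counts were fitted with edgeR 4.0.16 in R 4.3.3 (filterByExpr, TMM, quasi-likelihood test, BH adjustment over all tested genes, called at 0.05), with the libraries of each comparison only. SEs were taken from the log2 fold change and its F statistic. Levels are CPM with TMM factors over all 14 libraries. Depth was 9596773 to 17594164 counts. On simulated data in which 200 genes were shifted by 2 on the log2 scale, the test recovered 51.5%, 63.5%, and 81.5% of them in slow-growing PNs versus controls (15714 genes), fast-growing PNs versus controls (16037), and fast-growing versus slow-growing PNs (15465), with 3.74%, 3.05%, and 4.12% of calls false. Replicates were compared pairwise, and no library duplicated another. Positions are from GENCODE M21 and promoters from RefSeq, both GRCm38.

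The members and all lists were chosen with earlier results of these data known. Besides the members, the text names the pathway genes called in at least 1 comparison, up to the 10 with the lowest p, with *Pcsk6*, *Prkg1*, and *Mme* whatever their values, the 2 genes of each family with the highest level per kilobase, and the 5 most like *Corin*. Marker lists are given beside a member by a choice made after their values were seen, and not every list that moved with a member is named. Alternatives were relative log expression factors, DESeq2 1.42.0, no filter, 1 fit of all groups, limma 3.58.1 on the deposited log2 values, fat and skeletal muscle scores (mean log2[CPM + 1] over 13 and 14 markers) as covariates, and leaving out each library. P-values measure the spread between these libraries. The single-cell and human samples were not analysed here.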

Additional observations from a re-analysis of the deposited data

Results flagged for a closer look

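Within groups of 5 or 6 PNs, 9 of 46 group-by-gene sets over 23 genes had a library far from the others by Dixon's test. That test flags about 1 in 20 sets of independent, normally distributed values. The CPM were not log transformed here, and genes of the same library can move together. The count of flags therefore cannot be set against that rate. *Corin* was left out of this test. Slow-growing PN 1206 stood apart for *Nppc* (0.87 CPM, 9 counts, next highest 0.23), *Gucy1a3* (54.5 CPM, next 16.1), *Mrvi1* (33.3 CPM, next 13.2), and *Pde3a* (15.8 CPM, next 6.91). Slow-growing PN 1203 stood apart for *Npr2* (91.5 CPM, next 62.6). Fast-growing PN 1191 stood apart for *Npr1* (11.1 CPM, next 5.53), *Npr3* (11.9 CPM, next 4.54), *Gucy1b3* (5.90 CPM, next 4.04), and *Pcsk6* (28.6 CPM, next 13.7). In each case the library was the highest of its group.

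The effect in fast-growing and slow-growing PNs differed for *Mme* (log2 difference -1.57) and for *Tmprss5* (log2 difference 1.21), by the direct edgeR test between both kinds of PN. That test called 1.27% of all tested genes. Leaving out each library in turn, the call of *Mme* held in 3 of 11 fits and that of *Tmprss5* in 5 of 11.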

How the results depend on the processing

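No paired analysis was made because the labels give each library its own code and the groups share none. With relative log expression factors no count of called members or pathway genes changed by more than 1.5 times and no sign of a named gene reversed, but the count of all genes called in fast-growing versus slow-growing PNs fell from 196 (124 higher) to 130 (70 higher), and it was 1570 with DESeq2 and 423 in 1 fit of all groups. In slow-growing PNs versus controls, the count of called members was 3 with DESeq2, 2 in 1 fit of all groups, and 0 to 1 without each library in turn (1 without DRG3 or 1203), and the pathway count of 2 became 4 with DESeq2, 1 without the filter, 4 in 1 fit of all groups, and 1 to 4 without each library, where DESeq2 called 22.5%, the fit without the filter 7.34%, and the fit of all groups 20.1% of all tested genes. In fast-growing PNs versus controls, the count of called members was 3 to 4 without each library in turn (3 without 1053, 1071, 1179, 1214, or 1216), and the pathway count was 12 to 14. In fast-growing versus slow-growing PNs the pathway count of 1 became 3 with DESeq2 (10.2% of all tested genes called), 0 with limma (0.946%), and 0 to 3 without each library. With fat and skeletal muscle scores as covariates every one of these counts was 0, as was that of all genes (1071, 1171, and 1649 genes at an unadjusted p under 0.05 in the 3 comparisons), and signs reversed for *Mme* (0.57) and *Pcsk6* (0.49) in slow-growing PNs versus controls, *Furin* (-1.28), *Pcsk6* (0.42), and *Mbtps1* (-0.0243) in fast-growing PNs versus controls, and *Npr1* (0.11), *Npr2* (-0.16), *Npr3* (0.0587), *Mrvi1* (0.11), *Gucy1b3* (0.21), *Pcsk6* (0.0424), and *Hpn* (-0.0804) in fast-growing versus slow-growing PNs. Leaving out each library in turn, signs reversed in slow-growing PNs versus controls for *Mme* (-0.33 to 0.12, reversed without DRG3 or 1203), *Pcsk6* (-0.51 to 0.0714, without DRG3), and *Nppa* (-2.61 to 0.32, without DRG5), and in fast-growing versus slow-growing PNs for *Npr2* (-0.0147 to 0.20, without 1202), *Hpn* (-0.0015 to 0.74, without 1202), *Nppb* (-0.76 to 0.45, without 1203), *Prkg1* (-0.31 to 0.25, without 1203), and *Mrvi1* (-0.78 to 0.0103, without 1206). The causes were not tested. The log2 fold change of *Corin* in all PNs versus controls was 4.02, and 3.71 to 4.90 without each library. Exact two-sided permutation of log2(CPM + 1), without adjustment, gave each of *Npr1*, *Npr2*, and *Npr3* the smallest p that the libraries allow in slow-growing (0.0357) and fast-growing PNs (0.0238) versus controls, which only restates that the groups did not overlap, as in 23.4% and 32.4% of all tested genes. It gave *Nppa* 0.5 and 0.262, *Furin* 0.25 and 0.738, and members other than *Corin* 0.0736 to 0.818 in fast-growing versus slow-growing PNs.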
